A study of Mus musculus with 6 samples.

Results

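Fibroblast growth factors (FGFs) are secreted proteins that bind receptor tyrosine kinases together with heparan sulphate, a sugar chain of the cell surface and matrix, and that signal inside the cell mainly through the Ras and ERK pathway. In the uterus, the progesterone receptor induces Indian hedgehog in the epithelium, which acts on the stroma. There the transcription factor Hand2 holds down several FGFs that would otherwise drive growth of the overlying epithelium through its FGF receptors. The genes described here are 6 ligands (Fgf1, Fgf2, Fgf7, Fgf9, Fgf10 and Fgf18) and the 4 receptor genes Fgfr1 to Fgfr4, 10 of the 56748 genes in the tables, chosen by name. All 10 were among the 16737 genes with enough counts to be tested.

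Uterine poly(A) RNA was taken at 1600 h on day 4 of mouse pregnancy and sequenced in bulk. The 3 control libraries are labelled WT, and the 3 Zip10 cKO libraries come from mice with a conditional knockout of Zip10 (the zinc importer gene Slc39a10), described as specific to the uterus. The sources used here do not give the Cre driver, the deleted exons, the age or the strain. The labels do not say that each library came from a separate animal, so p-values measure the spread between these samples, which may be technical.

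Library totals ran from 19643093 to 22809577 expected counts. Slc39a10 itself was counted at 54.6, 70.4 and 66.2 CPM (counts relative to the scaled library total) in controls 1, 2 and 3 and at 39.5, 72.5 and 79.8 CPM in the cKO libraries 1, 2 and 3. The groups overlapped, with a fold of 1.00 (95% interval 0.678 to 1.49). The gene total thus did not separate the labelled genotypes, and whether it covers the deleted exons cannot be told from these sources. The uterine genes Hoxa10 and Hoxa11 were present in every library, with lowest levels of 234 and 195 CPM. Smooth muscle genes were abundant too, with Acta2, the smooth muscle actin, between 2178 and 5033 CPM, although the series design speaks of endometrium. Adipocyte markers summed to 19.7 CPM in control 3 and 10.98 CPM in cKO 3, and to at most 1.06 CPM in the other libraries. Because the tissue is a mixture, fewer cells of a type and less RNA per cell cannot be told apart in any value below.

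Among the 10 genes, Fgf2 and its receptor gene Fgfr1 were the members whose cKO libraries all lay above all controls, by 1.81-fold and 1.32-fold. With edgeR's quasi-likelihood test over all genes, neither reached the threshold of 0.05 (adjusted p = 0.735 and 0.747). The other 8 members overlapped between the groups. By fitted fold change, 5 members were higher in the cKO libraries and 5 lower. Their median log2 fold change was 0.01, beside 0.00 over all genes tested, of which 49.4% were higher.

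That test called 0 of the 16737 genes (0%), with 1081 at an unadjusted p under 0.05, which is 6.46% of those tested (4.48% higher and 1.98% lower). Of the 10 members, 0 were called and 2 had an unadjusted p under 0.05, both higher. The cKO and control libraries did not overlap for 12.7% of all genes, with all cKO libraries above in 6.93% and all below in 5.78%. Among the members this held for 2 of 10 (20%).

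**Figure D1:**
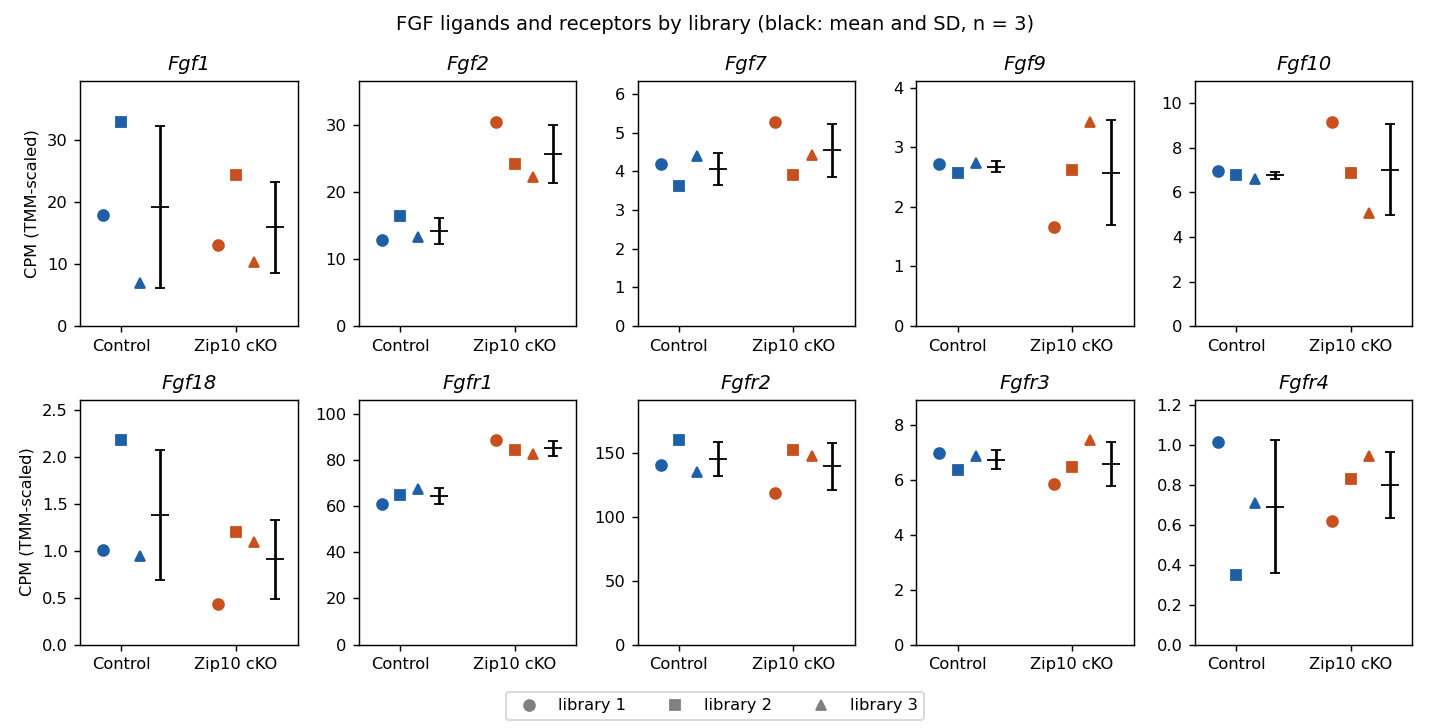
Level of each gene in CPM (vertical axis, from 0, with its own scale in each panel) in the 3 control and 3 Zip10 cKO libraries, with the mean and SD of each group in black. In the Fgf2 panel the cKO libraries sit at 22.2 to 30.4 CPM and the controls at 12.8 to 16.4 CPM, and in the Fgfr1 panel at 82.3 to 88.4 and 60.7 to 67.5 CPM; in the other 8 panels the groups overlap.

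Fgf2 (ENSMUSG00000037225), basic fibroblast growth factor, is a mitogen of stromal, endothelial and muscle cells and is stored on heparan sulphate in the matrix. It was at 12.8, 16.4 and 13.3 CPM in controls 1, 2 and 3, and at 30.4, 24.1 and 22.2 CPM in the cKO libraries 1, 2 and 3. The lowest cKO library lay above the highest control. Controls averaged 14.1 ± 1.94 CPM and cKO libraries 25.6 ± 4.30 CPM (SD, n = 3 each). The log2 fold change of 0.86 ± 0.16 (SE) corresponds to 1.81-fold, with a 95% interval from 1.40 to 2.35 that takes no account of the number of genes tested. It rests on 282 to 640 counts per library. Its unadjusted p was the 14th smallest of the 16737 genes in edgeR's quasi-likelihood test (adjusted p = 0.735). DESeq2 called Fgf2, with an adjusted p of 0.00668, among 37 genes (0.128% of those it tested). The likelihood ratio test of edgeR called it with an adjusted p of 0.0135 among 30 genes (0.179%), and the quasi-likelihood test of edgeR without a filter on low counts with an adjusted p of 0.0421 among 15 (0.0518%), while limma-voom did not (adjusted p = 0.743). Without cKO library 1, which held the highest level, the log2 fold change was 0.71.

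The 3′ end of Fgf2 is overlapped on the opposite strand by Nudt6, a nucleotide hydrolase gene, and the strand setting of the counting is not given, so reads from the shared exons cannot be told apart. Nudt6 was counted at 4.00, 2.52 and 2.83 CPM in controls and 1.57, 2.85 and 3.33 CPM in the cKO libraries, a log2 fold change of -0.27 ± 0.33 (SE) with overlapping groups. The part of Nudt6 reads in the Fgf2 total was not tested. The mean length of the Fgf2 transcripts that RSEM assigned reads to was 5789 bases in controls and 5690 bases in cKO libraries, and ran from 5551 to 5855 bases over the 6 libraries.

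The promoter windows of Fgf2 and Fgf10 are printed because the first gene's libraries separated by group and the second's did not, and both are known stromal ligands. They are the 250 bases before the gene start in RefSeq (build GRCm38.p6, not the build of the counts), at chr3:37348403-37348652 and chr13:118714449-118714698, both on the plus strand. Capitals mark E-boxes (CANNTG on either strand, the class of site bound by basic helix-loop-helix factors such as Hand2) and GC boxes (GGGCGG or its complement CCGCCC), which share no base here. A GENCODE M21 transcript of Fgf2 begins further upstream than the RefSeq start.
Fgf2: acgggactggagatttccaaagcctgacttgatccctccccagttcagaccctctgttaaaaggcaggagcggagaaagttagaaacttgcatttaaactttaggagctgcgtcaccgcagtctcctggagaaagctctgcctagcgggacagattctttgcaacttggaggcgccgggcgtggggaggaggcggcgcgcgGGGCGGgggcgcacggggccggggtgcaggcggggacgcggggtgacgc
Fgf10: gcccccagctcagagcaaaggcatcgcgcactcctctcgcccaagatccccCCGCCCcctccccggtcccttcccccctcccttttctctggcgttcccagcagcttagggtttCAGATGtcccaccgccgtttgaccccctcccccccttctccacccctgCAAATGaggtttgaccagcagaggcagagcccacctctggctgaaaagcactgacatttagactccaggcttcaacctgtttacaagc
The Fgf2 window held 0 E-boxes and 1 GC box, and the Fgf10 window 2 E-boxes and 1 GC box. Of all 32851 windows of this length, 66.2% held an E-box and 32.7% a GC box. Windows were found for 8 of the 10 members, 9 windows in all, of which 5 held an E-box and 6 a GC box. The Fgfr2 window, counted among them, begins at a RefSeq start that no GENCODE M21 transcript shares. A match describes letters in the window only and says nothing about binding of a factor.

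Fgfr1 (ENSMUSG00000031565) encodes the FGF receptor most typical of mesenchymal cells and a main receptor of Fgf2. It was at 60.7, 64.6 and 67.5 CPM in controls 1, 2 and 3 and at 88.4, 84.1 and 82.3 CPM in the cKO libraries 1, 2 and 3. The groups were well apart relative to their spread, with means of 64.2 ± 3.43 and 84.9 ± 3.13 CPM (SD, n = 3 each). The log2 fold change was 0.40 ± 0.09 (SE), or 1.32-fold with a 95% interval from 1.15 to 1.52, on 1307 to 1860 counts per library. Its unadjusted p ranked 29th of 16737 (edgeR quasi-likelihood adjusted p = 0.747; DESeq2 adjusted p = 0.127). With any library left out the log2 fold change stayed between 0.36 and 0.43.

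Most markers of muscle, stroma and macrophages were also higher in the cKO libraries, as Fgf2 and Fgfr1 were. Endothelial markers went the other way, with 7 of 8 lower by fitted value and a median log2 fold change of -0.16. With a library left out that median ran from -0.25 to -0.07. All 8 smooth muscle markers were higher in the cKO libraries by fitted value. Their median log2 fold change was 0.54, and 0.35 without cKO library 1, 0.36 without control 2 and 0.86 without control 3. Here edgeR's quasi-likelihood test called 0 of them, with 2 at an unadjusted p under 0.05. By DESeq2 1 was called, the smooth muscle myosin gene Myh11. Their summed level was 7265 to 13070 CPM in controls and 12240 to 16860 CPM in the cKO libraries, so control 3 lay above cKO library 3 and cKO library 2. Of 10 stromal markers 6 were higher and 4 lower, at a median of 0.19 and with sums of 10860 to 14060 against 14880 to 16960 CPM, which do not overlap. Without control 1 the median was 0.11. The sum is mostly collagen: Col3a1 and Col1a1 were the most abundant markers, at log2 fold changes of 0.49 and 0.48. The 4 lower markers were Hoxa11 (-0.26 ± 0.12, all cKO libraries below all controls), Hoxa10 (-0.16 ± 0.12), Thy1 (-0.09 ± 0.11) and Vim (-0.02 ± 0.12), the last 3 with overlap. All 8 macrophage markers were higher, with a median of 0.62 and sums of 244 to 316 against 290 to 626 CPM, the highest in cKO library 1. Without that library their median was 0.25. No marker of these lists was at 0 in any library. In control 3, where the muscle sum was above the mean of the 6 libraries (1.12 times it), Fgf2 was at 0.671 times and Fgfr1 at 0.905 times its own mean. The stromal sum was at 0.757, 0.878 and 0.980 times its mean in controls 1, 2 and 3. In cKO libraries 1, 2 and 3 it was at 1.18, 1.17 and 1.04 times. That is the order of the 6 libraries for Fgfr1, and for Fgf2 except that controls 2 and 3 change places. The part of these cell types in the Fgf2 and Fgfr1 values was not tested.

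**Figure D2:**
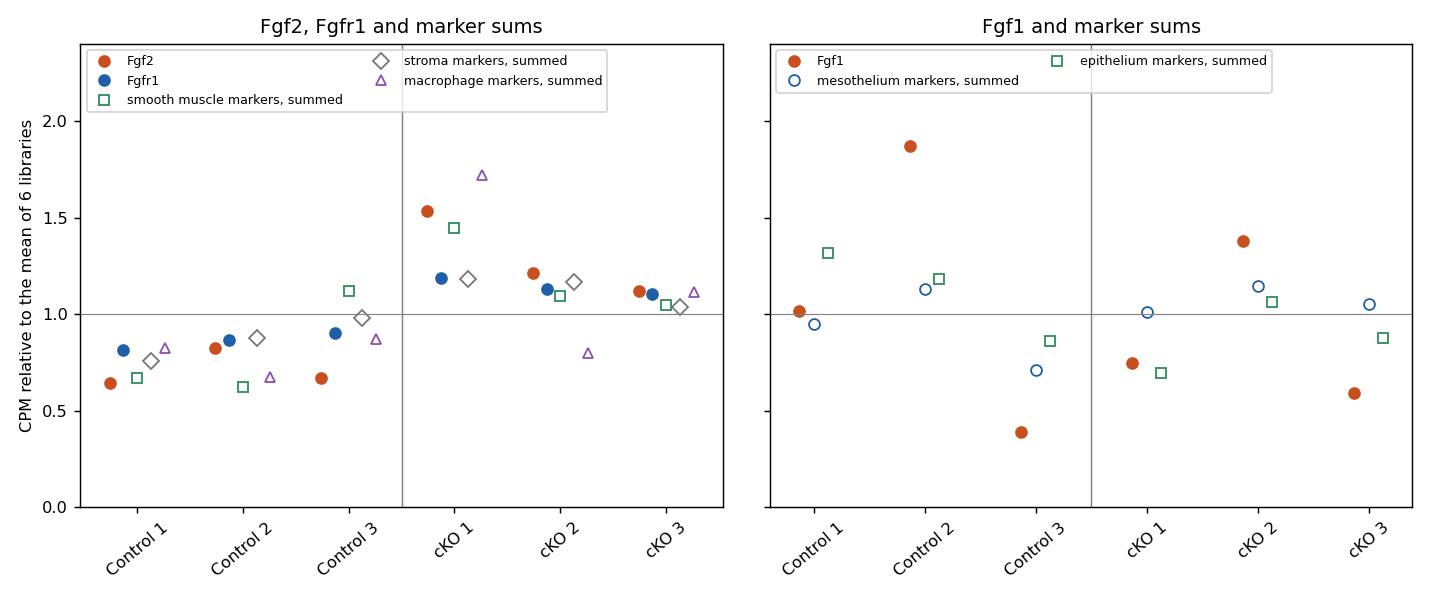
CPM divided by the mean of the 6 libraries (vertical axis) for Fgf2 and Fgfr1 with summed smooth muscle, stromal and macrophage markers (left), and for Fgf1 with summed mesothelial and epithelial markers (right), in each library. Fgf2 runs from 0.642 to 0.823 in controls and 1.12 to 1.53 in cKO libraries, while the muscle sum of control 3 (1.12) reaches the cKO range. The stromal sum runs from 0.757 to 0.980 in controls and 1.04 to 1.18 in cKO libraries, without overlap.

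The other receptors did not separate the groups. Fgfr2 (ENSMUSG00000030849), whose splice forms serve as the epithelial receptor for Fgf7 and Fgf10 and as a mesenchymal receptor, was at 140.5, 159.7 and 135.0 CPM in controls and 118.4, 152.1 and 147.5 CPM in the cKO libraries. The lowest library was cKO 1 and the highest control 2, with overlap between the groups. The fold was 0.961, with a 95% interval from 0.787 to 1.17 (edgeR quasi-likelihood adjusted p = 0.922). Ctbp2, a transcriptional corepressor gene on the same strand, shares 314 exonic bases with Fgfr2 and had a log2 fold change of 0.05 ± 0.10. The Fgfr2 gene total does not separate the epithelial from the mesenchymal splice form. Beside it, all 10 epithelial markers were lower in the cKO libraries by fitted value (median log2 fold change -0.31), 2 of them at an unadjusted p under 0.05 and 0 past the adjusted threshold. Leaving out control 1 gave a median of -0.15, cKO library 1 -0.19, control 3 -0.46 and cKO library 2 -0.50. Their sums were 835 to 1275 CPM in controls and 672 to 1031 CPM in the cKO libraries.

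Fgfr3 (ENSMUSG00000054252), a receptor best known from cartilage, was at 6.99, 6.37 and 6.90 CPM in controls and 5.85, 6.49 and 7.45 CPM in the cKO libraries. The control values lay within the cKO range, and the fold was 0.976 with a 95% interval from 0.738 to 1.29. Its mean transcript length differed between libraries more than its level did, at 2302 bases in control 2 and 2271 bases in cKO library 2 against 3137 to 3933 bases in the other 4 libraries. Those 2 libraries therefore had the highest deposited TPM (transcript abundance, which divides by length), 3.95 and 3.99, without having the highest CPM.

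Fgfr4 (ENSMUSG00000005320), a receptor prominent in liver, was near the lower limit, at 1.01, 0.346 and 0.708 CPM in controls and 0.618, 0.828 and 0.944 CPM in the cKO libraries, on 7 to 23 counts per library. The groups overlapped, and the 95% interval of the fold, from 0.581 to 2.27, holds changes of either direction. Klb, the beta-Klotho co-receptor with which Fgfr4 binds endocrine FGFs, had 19 counts in all 6 libraries together and was not tested.

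Fgf1 (ENSMUSG00000036585), acidic fibroblast growth factor, can bind all FGF receptors and varied widely between libraries of 1 group. It was at 17.9, 33.0 and 6.90 CPM in controls and 13.2, 24.3 and 10.4 CPM in the cKO libraries, a 4.79-fold range over the 6 libraries on 146 to 668 counts. The highest and the lowest library were both controls. The log2 fold change was -0.27 ± 0.53 (SE), and without control 2 it was 0.36. The 4 mesothelial markers summed to 148 to 235 CPM in controls and 210 to 238 CPM in the cKO libraries, with none at 0. Most of that sum in every library was Wt1, at 120.6 to 160.2 CPM. Of the 4, Msln was highest in control 2, as Fgf1 was, Upk3b and Lrrn4 in cKO library 2 and Wt1 in cKO library 1, and all 4 were lowest in control 3. Their part in the Fgf1 level was not tested. The mean length of Fgf1 transcripts ran from 3047 bases in control 2, the library with most Fgf1, to 3902 bases in control 3, the library with least.

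Fgf7 (ENSMUSG00000027208), keratinocyte growth factor, and Fgf10 (ENSMUSG00000021732) are made by stromal cells and act on epithelium through an Fgfr2 splice form. Fgf7 was at 4.18, 3.61 and 4.39 CPM in controls and 5.28, 3.91 and 4.42 CPM in the cKO libraries, a fold of 1.12 with a 95% interval from 0.796 to 1.57. Its log2 fold change of 0.16 was 0.04 without cKO library 1 and 0.08 without control 2. Fgf10 was at 6.94, 6.77 and 6.61 CPM in controls and 9.17, 6.86 and 5.07 CPM in the cKO libraries, a fold of 1.04 with an interval from 0.721 to 1.496. In Fgf10 the controls lay close together (SD 0.166 CPM) and the cKO libraries spread to either side of them (SD 2.06 CPM). The transcript length assigned to Fgf10 was 4114 bases in every library.

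Fgf9 (ENSMUSG00000021974), an epithelial and mesothelial ligand in several organs, was at 2.73, 2.57 and 2.74 CPM in controls and 1.66, 2.62 and 3.43 CPM in the cKO libraries. Here too the controls lay inside the cKO range, with cKO library 1 lowest and cKO library 3 highest, the reverse of their order for Fgf10. The fold was 0.959, with a 95% interval from 0.597 to 1.54. Its mean transcript length was 2225 bases in controls and 2094 bases in cKO libraries, shorter in all 3 cKO libraries, with an exact two-sided permutation p of 0.1, the smallest that 3 against 3 allows, and an adjusted p of 1 over the 10 members. For the other 9 members the exact permutation p of the length was 0.4 or more.

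Fgf18 (ENSMUSG00000057967), a ligand with roles in skeletal and lung growth, was at 1.01, 2.17 and 0.945 CPM in controls and 0.428, 1.20 and 1.09 CPM in the cKO libraries. Its 9 to 44 counts per library gave a 5.08-fold range, with control 2 highest and cKO 1 lowest. The fold was 0.662, and its 95% interval ran from 0.308 to 1.42. Without control 2 the log2 fold change went from -0.60 to -0.11, and without cKO library 1 to -0.26. At this depth the interval is wide and holds differences in either direction.

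**Figure D3:**
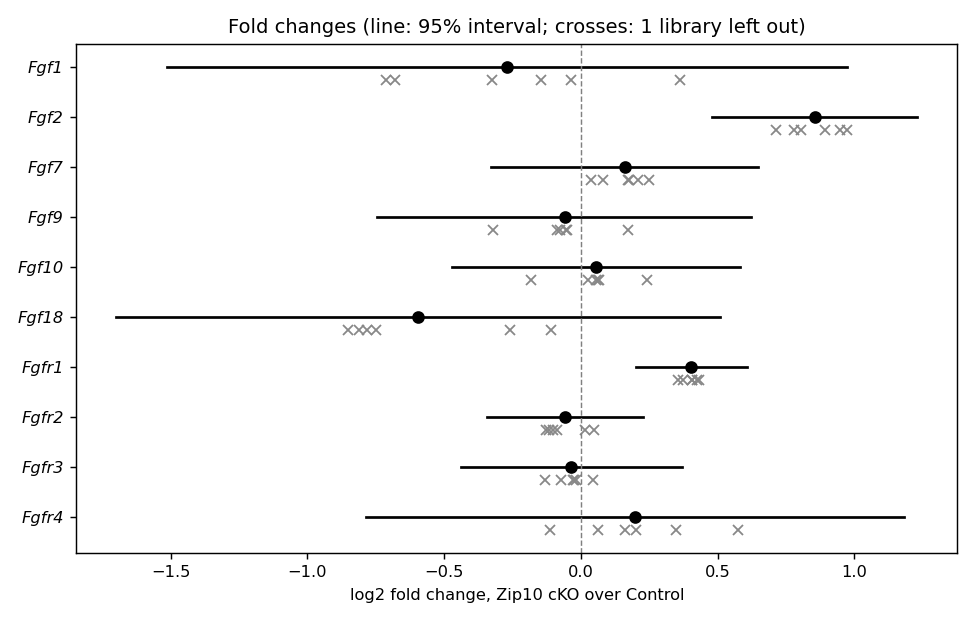
Fitted log2 fold change of Zip10 cKO over control for each gene (points) with its 95% interval (lines), and the value with each library left out in turn (grey crosses). The intervals of Fgf2 and Fgfr1 lie above 0, before any adjustment for the number of genes, and those of the other 8 genes include 0.

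Compared per transcript length, Fgfr2 and Fgfr1 were the most abundant members, while Fgfr3 and Fgfr4 lay among or below the ligands. Deposited TPM of Fgfr2 ran from 68.8 to 86.3 over the 6 libraries and of Fgfr1 from 20.2 to 34.0, and neither range overlapped the next gene in the order. Fgf1 followed at 2.39 to 15.1 TPM and Fgf2 at 2.74 to 7.44 TPM. From Fgf1 down through Fgf2, Fgfr3, Fgf7, Fgf10, Fgf18 and Fgf9 each gene's range overlapped that of its neighbour. The order of neighbours is thus not resolved by these libraries. Genes further apart can differ, as the ranges of Fgf1 and Fgf2 lay above that of Fgf9 (1.21 to 2.37 TPM). Fgfr4, at 0.14 to 0.62 TPM, lay below all other members. In cKO libraries the mean TPM of Fgf2 was 6.15 ± 1.14, close to the mean of Fgf1 at 6.22 ± 2.62, and in controls the means were 3.20 ± 0.566 and 8.06 ± 6.47 (SD, n = 3 each).

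**Figure D4:**
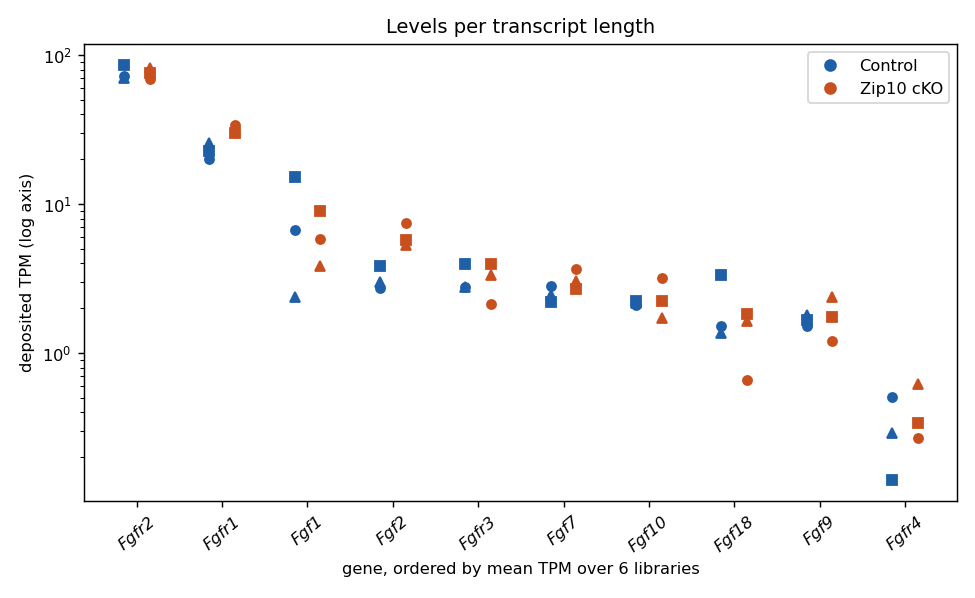
Deposited TPM (vertical log axis) of each gene in each library, with genes ordered by their mean over the 6 libraries. Fgfr2 (68.8 to 86.3 TPM) and Fgfr1 (20.2 to 34.0 TPM) stand above the rest, 7 genes overlap with their neighbours, and Fgfr4 is lowest.

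Of the other 16 FGF family ligands looked for, 3 were tested, all of them intracellular FGF homologous factors that do not signal as secreted ligands. Fgf11 was at 6.35 CPM on average in controls and 7.62 CPM in the cKO libraries, Fgf12 at 1.88 and 2.25 CPM, and Fgf13 at 1.46 and 1.42 CPM. Their log2 fold changes were 0.26 ± 0.31, 0.26 ± 0.36 and -0.04 ± 0.35 (SE), with overlapping groups. The remaining ligands had at most 25 counts in the 6 libraries together, and 4 of them, Fgf4, Fgf6, Fgf8 and Fgf20, had 0.

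The genes with which FGFs act were taken from 4 lists of co-receptors and binding proteins, heparan sulphate enzymes, signal transducers and feedback targets, 67 genes tested in all. With edgeR's quasi-likelihood test 0 of them passed the adjusted threshold, and DESeq2 and edgeR's likelihood ratio test also called 0. At an unadjusted p under 0.05 there were 5 (7.46%, beside 6.46% of all genes), 4 higher and 1 lower. In 7 genes all cKO libraries lay above all controls and in 2 below (13.4% together, beside 12.7% of all genes). The median log2 fold change of the 67 was 0.07.

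Co-receptors and binding proteins were higher in 13 of 16 cases and lower in 3, at a median of 0.08 (log2). Hspg2, which encodes perlecan, the heparan sulphate proteoglycan of basement membranes that binds Fgf2, was at 284, 363 and 339 CPM in controls and 548, 467 and 419 CPM in the cKO libraries. The groups did not overlap, and the log2 fold change was 0.54 ± 0.14 (SE; edgeR quasi-likelihood adjusted p = 0.747). Sdc3, a membrane syndecan, gave 0.32 ± 0.13, with control 3 at 124.5 CPM just above cKO 3 at 123.6 CPM. Flrt2, a membrane protein that can bind FGF receptors, gave 0.40 ± 0.21, and Sdc2 0.12 ± 0.11. Fgfrl1, a receptor that lacks a kinase, stood at 0.08 ± 0.15 and the epithelial syndecan Sdc1 at 0.03 ± 0.13.

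Of 12 heparan sulphate enzymes 9 were higher and 3 lower, with a median of 0.14. Ndst1, which sulphates the chains that FGFs bind, was at 153, 143 and 135 CPM in controls and 175, 185 and 155 CPM in the cKO libraries, without overlap, and its log2 fold change was 0.26 ± 0.11. Sulf1, a sulphatase that trims those chains, was at 106, 120 and 120 CPM in controls and 267, 129 and 113 CPM in the cKO libraries, so that cKO library 1 alone stood apart. Hpse, heparanase, was also highest in cKO library 1, at 14.4 CPM. It was at 2.85 CPM in cKO library 2, 7.10 CPM in cKO library 3 and 3.36 to 5.34 CPM in controls. Hs6st2, a sulphotransferase with 108 counts in all, gave -0.67 ± 0.44.

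Of 22 signal transducers 15 were higher and 7 lower, with a median of 0.05. Frs2, the adaptor that links activated FGF receptors to Ras, was at 89.2, 85.3 and 88.0 CPM in controls and 128, 106 and 98.2 CPM in the cKO libraries, a log2 fold change of 0.34 ± 0.11 with no overlap. Ptpn11, the phosphatase that Frs2 recruits, gave 0.24 ± 0.11 and Cbl, a ubiquitin ligase of the pathway, 0.26 ± 0.11, both with all cKO libraries above all controls. Mapk3, which encodes ERK1, gave -0.17 ± 0.09, with all 3 cKO libraries below.

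The feedback targets, whose RNA commonly follows FGF and ERK activity, lay on both sides of 0. Of 17 tested, 11 were higher and 6 lower, with a median of 0.07. The Sprouty genes, inhibitors of the pathway, gave 0.12 ± 0.13 for Spry1, -0.17 ± 0.11 for Spry2 and 0.05 ± 0.19 for Spry4. Dusp6, an ERK phosphatase, averaged 41.7 ± 1.44 CPM in controls and 38.1 ± 2.67 CPM in the cKO libraries, at -0.13 ± 0.10 with overlap. The ETS factors Etv4 and Etv5 gave 0.24 ± 0.40 and 0.11 ± 0.18, Etv1 0.55 ± 0.27, and the feedback inhibitor Il17rd 0.00 ± 0.18. Myc, a growth regulator, was the 1 gene of this list with an unadjusted p under 0.05, at -0.31 ± 0.13, and Egr1, an immediate early gene, gave -0.49 ± 0.26.

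**Figure D5:**
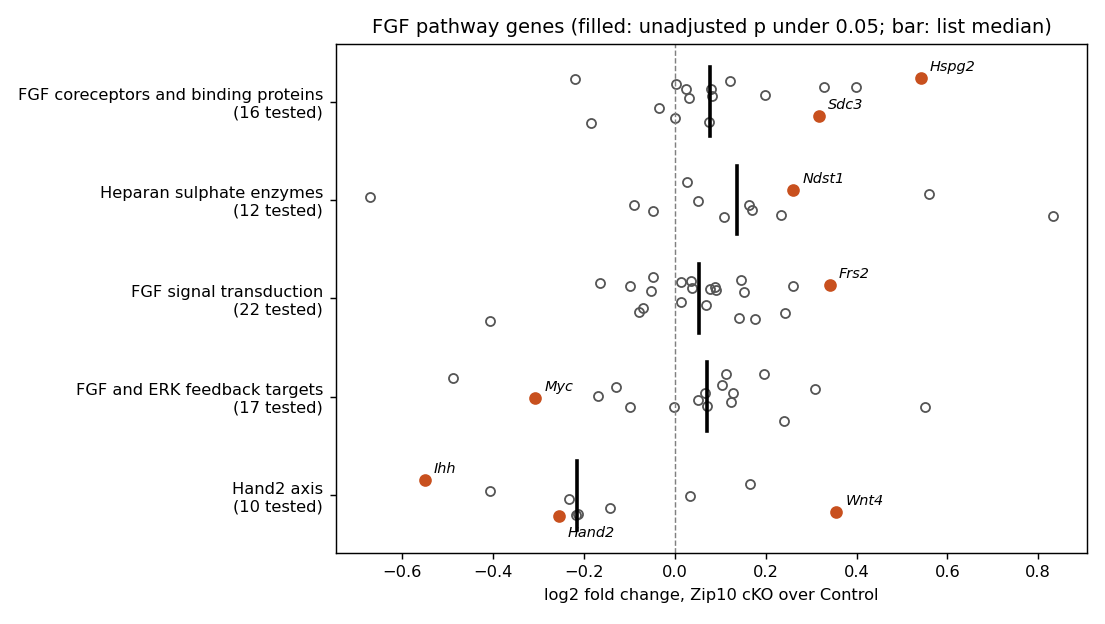
Log2 fold change of Zip10 cKO over control (horizontal axis) for the tested genes of the 4 FGF pathway lists and the Hand2 list, with the median of each list as a bar and genes at an unadjusted p under 0.05 filled and named. The medians of the 4 pathway lists lie between 0.05 and 0.14, that of the Hand2 list at -0.22, and no gene passed the adjusted threshold. Vertical scatter within a list has no meaning.

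Upstream of the stromal FGFs, Hand2 was at 93.7, 93.8 and 92.8 CPM in controls and 72.4, 85.4 and 76.8 CPM in the cKO libraries. The controls lay close together and all 3 cKO libraries lay below them, a log2 fold change of -0.26 ± 0.09 (SE; edgeR quasi-likelihood adjusted p = 0.747). Ihh gave -0.55 ± 0.18, and Gli1, a hedgehog target in stroma, -0.22 ± 0.10, both also with all cKO libraries below. Pgr, the progesterone receptor, gave -0.14 ± 0.18 with overlapping groups. Wnt4, a stromal Wnt ligand, gave 0.36 ± 0.14 with all cKO libraries above. Of the 10 genes of this list 0 passed the adjusted threshold in edgeR's quasi-likelihood test, DESeq2 or edgeR's likelihood ratio test. With edgeR's quasi-likelihood test 3 had an unadjusted p under 0.05, beside 6.46% of all genes. In 2 genes (Wnt4 and Klf15) all cKO libraries lay above all controls and in 3 below, beside 12.7% of all genes without overlap. Of the ligands, Fgf2 was the member with all cKO libraries above all controls, as in 6.93% of all genes. Fgf1, Fgf7, Fgf9, Fgf10 and Fgf18 overlapped. Neither the difference between the ligands nor a link between Hand2 and Fgf2 was tested.

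By Pearson's r of log2 CPM over the 6 libraries, the genes with a pattern most like that of Fgf2, out of 11707 compared, were Asxl2 (r = 0.993), S1pr2 (r = 0.991) and Dot1l (r = 0.990). Asxl2 was at 39.7 to 43.1 CPM in controls and 46.1 to 49.5 CPM in the cKO libraries. For Fgfr2, the most abundant receptor, they were Stk11ip (r = 0.993), Dtx4 (r = 0.986) and Zfp976 (r = 0.982). With so few libraries and so many genes, values of this size are a description and carry no test.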

How the data were processed

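Poly(A) RNA of mouse uterus was sequenced in 6 libraries, grouped by the sample titles. Per the submitters' processing notes, the tools included RSEM 1.3.3, STAR 2.7.10a and fastp 0.23.2, with build GRCm39. No source used here gives their settings. The authors deposited RSEM tables with expected counts (reads shared by genes are split), TPM and transcript length, per the file headers. Symbols came from GENCODE M21 (91.8% of gene IDs matched).

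Expected counts were rounded, filtered by filterByExpr (minimum count 10, minimum total 15), scaled by TMM and tested with edgeR 4.0.16's robust quasi-likelihood test in R 4.3.3, two-sided, with Benjamini-Hochberg adjustment over 16737 genes. SE came from the F statistic. On simulated counts of this comparison over 16737 genes, the test recovered 36% of genes changed 1.5-fold, 80% at 2-fold, 96% at 4-fold and 100% at 8-fold. There were 17 false calls among unchanged genes. Changes were planted only in genes with higher mean counts, and the spread was drawn from the same fit. The shares thus do not hold for members with few counts, such as Fgf18 and Fgfr4. Nor do they measure power in the real libraries, where Fgf2 at 1.81-fold had a quasi-likelihood adjusted p of 0.735. Alternatives were DESeq2 1.42.0, limma 3.58.1 (voom, and trend on log2 TPM), the likelihood ratio test, other scalings and filters, removal of a length trend, the replicate number as a block and leaving out each library.

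The members and lists were chosen with earlier results of these data known. Genes named were the members, Slc39a10, Hand2, Pgr, Ihh, the other FGF ligands tested, up to 4 genes of each list with the smallest p, 10 set pathway genes, abundant markers and the 3 genes most like Fgf2 and Fgfr2. Others (Hoxa10, Hoxa11, Msln, Thy1, Vim, Lrrn4, Sdc2, Gli1 and Nudt6 among them) were added after their values were seen. Figures were drawn with matplotlib 3.10.9.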

Additional observations from a re-analysis of the deposited data

How the results depend on the processing

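Across 17 alternatives the log2 fold change of Fgf2 ran from 0.71 to 0.97 and that of Fgfr1 from 0.34 to 0.49. DESeq2 called 37 genes and 1 member, the likelihood ratio test 30 and 1, and the quasi-likelihood test with no filter on low counts 15 and 1; the member was Fgf2 each time. The other 14 alternatives, among them every left-out library, called 0 genes and 0 members. The count of members that did not overlap was 2 to 3 with a library left out. The matching share over all genes was not computed. Groups separate more easily with fewer libraries, so the 12.7% over all 6 libraries is no background for that count. With the replicate block the call stayed at 0 genes and Fgf2 at 0.85 (edgeR quasi-likelihood adjusted p = 0.596). Deviations of libraries with the same number correlated at 0.089, 0.248 and 0.182, and those with different numbers at -0.322 to 0.117. These few values do not settle whether the number pairs the libraries. The labels state no pairing, and the main fit did not use one. Members near 0 changed sign: Fgf9 was at 0.0382 on log2(TPM + 1) and 0.0422 on log2(TPM + 0.1), and Fgf10 at -0.022 after removal of the length trend. With libraries left out, Fgf1 ran from -0.71 to 0.36, Fgf7 from 0.04 to 0.25, Fgf18 from -0.85 to -0.11, Fgf9 from -0.32 to 0.17, Fgf10 from -0.18 to 0.24, Fgfr2 from -0.13 to 0.0462, Fgfr3 from -0.13 to 0.0447 and Fgfr4 from -0.11 to 0.58. Medians of the 4 pathway lists stayed above 0, between 0.01 and 0.17. Their counts at a quasi-likelihood unadjusted p under 0.05 moved more. With the length trend removed the lists, in their order above, held 1, 0, 0 and 0, beside 925 of all genes. Without cKO library 1 they held 1, 0, 0 and 1, beside 711. Without cKO library 3 they held 2, 4, 2 and 1, beside 1369. Why values changed was not tested. Depth limits Fgf18 and Fgfr4, with as few as 9 and 7 counts in a library.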
